A study of Homo sapiens with 6 samples.

Results

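The complement genes examined here were 9 genes, taken from the 19937 genes of the count table by their symbols. They encode the proteases C1R and C1S, the convertase components C3 and CFB, the soluble regulators SERPING1 and CFI, and the membrane regulators CD46, CD55 and CD59. All 9 had a row in the table. Their expression was compared between U2OS cells, an established human osteosarcoma line, that stably carried a hairpin against SQLE (SQLE-shRNA, here shSQLE, n = 3 libraries) or a scrambled hairpin (scrambled-shRNA, here shControl, n = 3 libraries). SQLE encodes squalene epoxidase, an enzyme of cholesterol synthesis. Cells of both groups were infected with lentivirus made from the pGIPZ plasmid and were selected with puromycin at 2 μg/mL for 2 weeks, and the labels give no other agent for either group. The study designed several hairpins against SQLE, and the labels do not name the one these libraries carry. Nor do they state whether replicate libraries represent separate cultures, so p-values measure only the spread between these libraries, which may be technical. In bulk RNA, fewer cells that express a gene and less RNA per cell cannot be told apart.

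Complement is a cascade of secreted proteins that marks a surface for uptake by phagocytes and can end in a pore in its membrane. C1r and C1s are the paired proteases of the C1 complex that start the classical pathway, and C1 inhibitor, the product of SERPING1, binds and inactivates both. The pathways meet at C3, and factor B, the product of CFB, joins cleaved C3 to form the convertase of the alternative pathway. Factor I, the product of CFI, cuts cleaved C3 and needs a cofactor, for which CD46 can serve on the cell surface. CD55 speeds the decay of convertases, and CD59 blocks assembly of the pore. The liver makes most of the plasma components, while many other cells make some of them under inflammatory cytokines, and nearly all nucleated cells carry the membrane regulators.

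Libraries held 12212378 to 14393292 counts on genes. SQLE itself was lower in every shSQLE library (204, 219 and 229) than in any shControl library (1349 to 1924), all given as normalized counts, which are counts rescaled to the mean effective library size. The control libraries were not alike. Among genes tested, the Pearson correlation of CPM (counts scaled to the library total) on the log2 scale was 0.969 and 0.963 between shControl replicate 1 and the other control libraries, against 0.995 between those. The gap followed base composition. In the decile of genes with the lowest GC content, the median log2 difference of shControl replicate 1 from the mean of replicates 2 and 3 was -0.64, and in the decile with the highest it was 0.65. Results are therefore also given without this library or with GC content fitted as an offset in each library, a fit added after the data were seen. As for cell identity, the 8 mesenchymal markers summed to between 4200 and 5250 CPM in all libraries, although THY1 was at 0 counts throughout and COL1A2 reached only 6. Of these markers, COL1A1 was lower in shSQLE (log2 fold change -0.65, adjusted p = 0.0452), and its part in the results below was not tested. The summed level of 8 blood and macrophage markers was at most 1.99 CPM, with PTPRC and CD163 at 0 counts in every library. Epithelial markers summed to 6.81 to 8.60 CPM and endothelial markers to 95 to 114 CPM, nearly all of it TIE1.

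**Figure D1:**
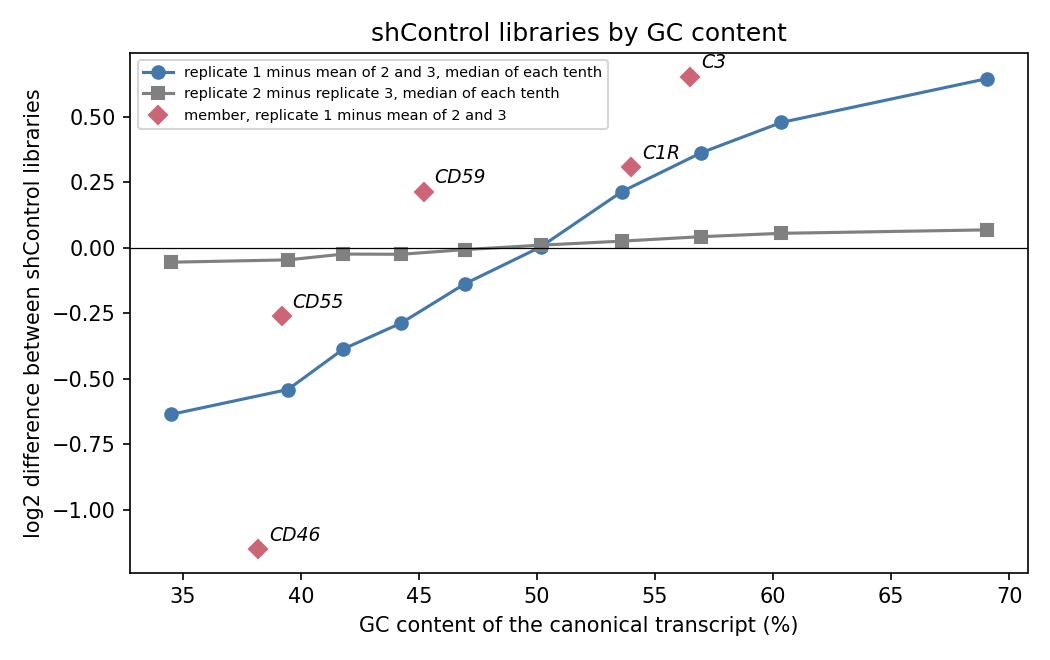
Log2 difference between shControl libraries (vertical axis) against the GC content of the canonical transcript in percent (horizontal axis), as the median of each decile of the genes tested (lines) and for the 5 complement members tested (diamonds). Replicate 1 ran from -0.64 in the lowest decile to 0.65 in the highest, while replicate 2 minus replicate 3 stayed between -0.05 and 0.07, and CD46 lay at -1.15.

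Levels differed widely among the members. Expressed as CPM per kilobase of the union of exons, CD59 had the highest level, with 15.5 ± 1.37 in shControl and 14.1 ± 0.40 in shSQLE (SD, n = 3 each). CD46 followed with 7.83 ± 3.09 and 6.70 ± 0.91, and CD55 with 4.13 ± 0.44 and 2.41 ± 0.21 (SD, n = 3 each). The control libraries of CD46 ranged from 4.30 to 10.1 and overlapped those of CD55 (3.64 to 4.48), whereas both lay below the lowest control value of CD59 (14.7). The secreted components were far lower on the same scale. C3 was at 0.24 ± 0.07 and C1R at 0.22 ± 0.03 in shControl, and their ranges overlapped, while C1S was at 0.07 ± 0.03 (SD, n = 3 each). CFB and CFI averaged 0.01 or less in shControl, and SERPING1 had no count. With the length of the longest transcript in place of the exon union, levels in shControl rose, to 21.2 for CD59, 15.5 for CD46, 11.2 for CD55, 0.54 for C3, 0.36 for C1R and 0.10 for C1S, and their order was the same. U2OS cells thus showed abundant transcripts of the 3 membrane regulators and scarce transcripts of the secreted proteins.

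**Figure D2:**
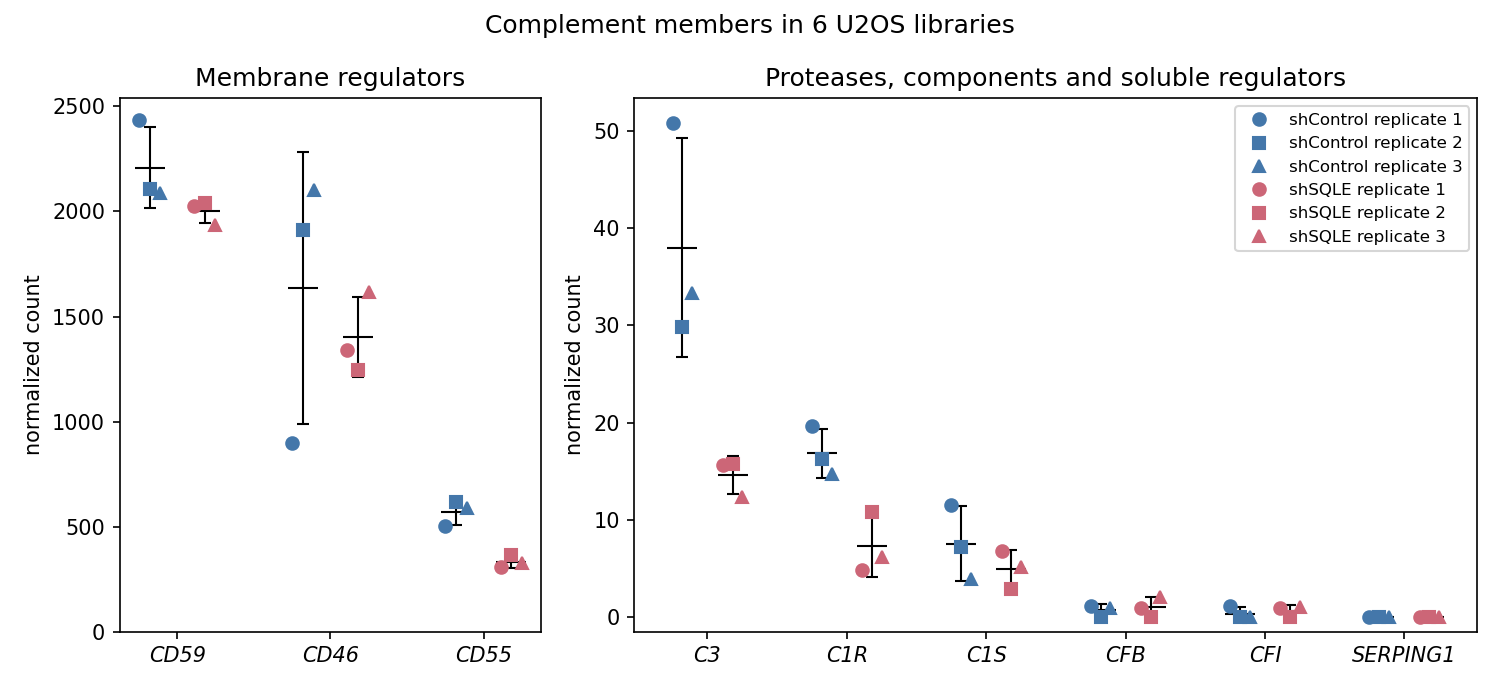
Normalized counts of the 9 complement genes (vertical axes, linear, with a separate scale in each panel) in the 3 shControl (blue) and 3 shSQLE (red) libraries, with replicates by symbol and the mean ± SD in black. CD55, C3 and C1R lay lower in all 3 shSQLE libraries than in any shControl library, while shControl replicate 1 set the low end of CD46 at 900 counts and SERPING1 stayed at 0.

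Across the genome, 12450 genes passed the filter on low counts and entered the quasi-likelihood test of edgeR, with p adjusted by the Benjamini-Hochberg method. At an adjusted p under 0.05, 2.84% of them were lower in shSQLE and 0.369% higher. Of the 9 complement genes, 5 were tested, and 1 of these, CD55, was called lower, while 0 were called higher. At an unadjusted p under 0.05, 3 were lower (CD55, C3 and C1R) and 0 higher, where 9.89% of all genes tested were lower and 4.83% higher. The fitted log2 fold change was below 0 for all 5, as for 51.6% of all genes tested (48.4% were above 0). Their median was -0.78, against -0.01 over all genes, but it was -0.39 with no filter on low counts, also with DESeq2, and -0.51 with a filter of 10 counts in every library, which C1R did not pass. In 4 of the 5, the groups did not overlap and shSQLE was lower, a pattern seen in 12.1% of all genes tested, against 10.0% with shSQLE higher. C1R passed the filter only through the shControl libraries, since just 1 shSQLE library reached the minimum of 0.737 CPM. It therefore adds nothing to these counts as evidence of a direction.

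Promoter sequences were available for 6 of the 9 members in the RefSeq table (GRCh38.p14), with 250 bases before the start site and 50 from it on. C1S, C3 and SERPING1 were not in that table. The sequences of the membrane regulators and C1R are shown because these are the tested members with an entry, CD55 having been called and the others not. For each gene the window nearest to the canonical transcript start is given, 5′ to 3′ on the strand of the gene: CD55 at chr1:207321428-207321727 (+), CD46 at chr1:207751804-207752103 (+), CD59 at chr11:33736374-33736673 (-) and C1R at chr12:7092396-7092695 (-). Capitals mark matches on either strand to 8 motifs: the GC box (GGGCGG), AP-1 (TGANTCA), CRE (TGACGTCA), the STAT element GAS (TTCNNNGAA), the ISRE core (GAAANNGAA), C/EBP (TTGCNNAA), the sterol regulatory element SRE (TCACNCCAC) and the NF-kB site.
CD55: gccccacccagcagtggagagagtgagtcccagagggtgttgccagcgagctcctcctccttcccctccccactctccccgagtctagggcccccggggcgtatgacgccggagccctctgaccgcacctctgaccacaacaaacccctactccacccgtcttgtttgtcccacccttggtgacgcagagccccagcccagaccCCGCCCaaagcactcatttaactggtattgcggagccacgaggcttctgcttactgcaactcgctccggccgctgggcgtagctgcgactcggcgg
CD46: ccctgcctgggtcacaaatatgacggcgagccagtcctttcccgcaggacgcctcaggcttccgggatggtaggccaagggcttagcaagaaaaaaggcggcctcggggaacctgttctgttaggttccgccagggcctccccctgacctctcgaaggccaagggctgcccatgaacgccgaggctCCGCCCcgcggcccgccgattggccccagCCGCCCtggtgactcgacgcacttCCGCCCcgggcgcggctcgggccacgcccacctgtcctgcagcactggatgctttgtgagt
CD59: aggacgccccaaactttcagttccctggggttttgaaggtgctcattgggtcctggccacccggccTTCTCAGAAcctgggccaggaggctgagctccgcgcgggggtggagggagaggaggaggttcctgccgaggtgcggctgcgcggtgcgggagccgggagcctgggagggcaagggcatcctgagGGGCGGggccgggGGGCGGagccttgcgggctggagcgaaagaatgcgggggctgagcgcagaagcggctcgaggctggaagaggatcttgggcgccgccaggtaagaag
C1R: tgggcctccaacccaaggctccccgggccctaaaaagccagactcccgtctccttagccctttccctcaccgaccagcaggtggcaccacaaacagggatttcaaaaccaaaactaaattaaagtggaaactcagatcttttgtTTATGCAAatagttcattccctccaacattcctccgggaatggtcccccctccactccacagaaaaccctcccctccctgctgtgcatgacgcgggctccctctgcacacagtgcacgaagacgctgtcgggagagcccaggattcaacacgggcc

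In these windows, CD55 had 1 GC box, 46 bases before the start site, and CD46 had 3, while CD59 had 2 together with 1 GAS match. A GC box was found in 45.0% of all 35116 promoter windows of this length and a GAS match in 7.66%. The C1R window had 1 match to C/EBP, 106 bases before the start site, a motif found in 10.5% of all windows. Other start sites in the table gave further matches, with 1 GAS and 1 C/EBP in a second C1R window and 2 C/EBP and 3 AP-1 (7.71% of all windows) in further CD59 windows. Of the genes not shown, CFB held 1 match each to GAS, the ISRE core and the NF-kB site, which were found in 7.66%, 8.11% and 11.3% of all windows, and CFI held 0. No window of these 6 genes held a match to the SRE (1.13% of all windows). Such matches are descriptions of letters in a window and do not show binding.

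CD55, also known as decay-accelerating factor, fell in shSQLE. The gene (ENSG00000196352) spans 207321519 to 207386804 of chromosome 1 in hg38, the build of all coordinates here, on the + strand. The shControl replicates 1, 2 and 3 had 503, 619 and 590 normalized counts, and the shSQLE replicates, in the same order as throughout, had 309, 366 and 326. All shSQLE libraries lay below all shControl libraries, and their mean came to 58.5% of the control mean (334 ± 28.9 against 571 ± 60.2, SD, n = 3 each). The log2 fold change was -0.78 (standard error 0.14, 95% interval -1.09 to -0.46, edgeR, adjusted p = 0.0235). The exact two-sided permutation test over libraries gave p = 0.1, the smallest that 3 libraries against 3 allow. In all 14 alternative fits the log2 fold change was between -0.86 and -0.71. The call was lost in each of the 5 fits that left out shControl replicate 2 or 3 or any 1 shSQLE library (adjusted p from 0.0852 to 0.162), and kept without shControl replicate 1 (-0.86, adjusted p = 8.97e-05) and with GC content as an offset (-0.72, adjusted p = 0.00885).

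The other membrane regulators were not called. CD59 (ENSG00000085063, - strand of chromosome 11, 33703010 to 33736479), the most abundant member, had 2433, 2107 and 2087 normalized counts in the shControl replicates and 2027, 2039 and 1934 in the shSQLE replicates. The groups did not overlap, but the lowest shControl and the highest shSQLE library lay close together. The log2 fold change was -0.14 (95% interval -0.39 to 0.10, adjusted p = 0.632), and with GC content as an offset the groups overlapped. CD46 (ENSG00000117335, + strand of chromosome 1, 207752037 to 207795513) had 900, 1910 and 2103 normalized counts in the shControl replicates and 1342, 1248 and 1616 in the shSQLE replicates. Here shControl replicate 1 lay below every other library and the other control libraries lay above every shSQLE library. The log2 fold change of -0.23 had a 95% interval from -0.89 to 0.44 (adjusted p = 0.805). It varied with the control library left out, and was -0.10 without shControl replicate 2. Without shControl replicate 1 it was -0.52 (adjusted p = 0.00314), in a fit that called 18.3% of all genes lower, and without shControl replicate 3 it was 0.0087 (adjusted p = 0.997). The GC content of the CD46 transcript, 38.2%, falls in the lowest decile, whose median shift in shControl replicate 1 was -0.64. The shift of CD46 was -1.15, and with GC content as an offset its log2 fold change was -0.12 (adjusted p = 0.688). The part of base composition in the CD46 values was not tested beyond this fit.

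Ratios within a library do not depend on how libraries are scaled. The log2 ratio of CD55 to CD59 counts was -1.95 ± 0.28 in shControl and -2.59 ± 0.12 in shSQLE (SD, n = 3 each), so that CD55 was lower relative to CD59 by 0.63 on the log2 scale. The groups did not overlap (two-sided exact permutation test, p = 0.1, adjusted p = 0.2 over 4 ratios). For CD55 relative to CD46 the difference was also -0.63, but the groups overlapped (exact permutation p = 0.2, adjusted p = 0.267), and without shControl replicate 1 it was -0.34. Neither ratio passed the threshold, which 3 libraries against 3 cannot reach, and both were chosen after CD55 had been seen to be lower. The log2 ratio of the 3 membrane regulators together to C3 was 6.24, 7.28 and 7.16 in the shControl replicates and 7.88, 7.86 and 8.30 in the shSQLE replicates. It was thus higher in every shSQLE library, by 1.12 on average (exact permutation p = 0.1, adjusted p = 0.2). The smallest value was again that of shControl replicate 1, and without it the difference was 0.79.

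C3, the component on which all pathways converge, was present at few reads. The gene (ENSG00000125730) lies on the - strand of chromosome 19, from 6677704 to 6730562. Raw counts were 44, 33 and 34 in the shControl replicates and 16, 16 and 12 in the shSQLE replicates. Every shSQLE library held fewer counts than any shControl library, and the normalized means were 38.0 ± 11.2 and 14.6 ± 1.95 (SD, n = 3 each), or 38.4% in shSQLE. The log2 fold change was -1.36 (standard error 0.30, 95% interval -2.05 to -0.67), with an adjusted p of 0.0556 from edgeR, which missed the threshold. The adjusted p was under 0.05 in 4 of the 14 alternative fits: 0.025 with DESeq2, 0.0354 with library size only, 0.0153 without shControl replicate 1 (log2 fold change -1.10) and 0.00931 with GC content as an offset (-1.36). In the other 10 fits it ran from 0.0502 to 0.24. From summed counts alone, 44 against 111, the scaled ratio was 0.394 with an exact binomial 95% interval of 0.271 to 0.564, which covers counting error only. The summed level of 8 markers of hepatocytes, the main source of plasma C3, was 1.76 to 3.77 CPM in shControl and 0.697 to 0.916 in shSQLE. Of these 8 markers, 4 had no count in any library, ALB had at most 6 counts and APOA1 at most 2. The lower sum lay in SERPINA1, with 43, 35 and 16 counts against 4, 6 and 5. TF went the other way, with 0, 0 and 1 counts in the shControl replicates and 3, 1 and 2 in the shSQLE replicates. The part of SERPINA1 in the C3 result was not tested.

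C1R and C1S lie close to each other on chromosome 12, C1R on the - strand from 7080214 to 7092540 (ENSG00000159403) and C1S on the + strand from 6988259 to 7071032 (ENSG00000182326). Raw counts of C1R were 17, 18 and 15 in the shControl replicates and 5, 11 and 6 in the shSQLE replicates, with all 3 shSQLE libraries below the controls. The log2 fold change was -1.18 (standard error 0.37, 95% interval -2.04 to -0.33, adjusted p = 0.172), and it was not called in any of the 13 alternative fits that tested it (adjusted p from 0.0634 to 0.525). The ratio of summed counts was 0.437 (exact binomial 95% interval 0.252 to 0.736, counting error only). Exons of C1R share 672 bases, or 11.6% of their length, with C1RL on the same strand, and C1RL had 126 to 220 normalized counts, so the C1R counts are uncertain to the extent that reads were split between them. C1S had 10, 8 and 4 counts in the shControl replicates and 7, 3 and 5 in the shSQLE replicates. These overlapped, and C1S did not pass the filter. Its ratio of 0.678 had an interval from 0.327 to 1.37, so that neither a fall of the size seen in C1R nor no difference at all was outside counting error. The log2 ratio of C1S to C1R was -1.28 ± 0.58 in shControl and -0.55 ± 1.21 in shSQLE (SD, n = 3 each; exact permutation p = 0.4, adjusted p = 0.4). The difference of 0.73 was 0.21 without shSQLE replicate 1 and 1.39 without shSQLE replicate 2.

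The remaining members were at or near 0. SERPING1 (ENSG00000149131, + strand of chromosome 11, 57597387 to 57619171), which encodes the only member that inhibits C1R and C1S proteases, had 0 counts in all 6 libraries. Taking 3 counts as the limit that a count of 0 allows, its level was at most 0.208 to 0.246 CPM, depending on the library. CFB (ENSG00000243649, + strand of chromosome 6, 31945650 to 31952086) had 1, 0 and 1 counts in the shControl replicates and 1, 0 and 2 in the shSQLE replicates. CFI (ENSG00000205403, - strand of chromosome 4, 109731008 to 109802150) had 1, 0 and 0 counts in shControl and 1, 0 and 1 in shSQLE. No library was above the floor of 3 counts for either gene, and no fold change is given. Both values carry a further limit from the annotation. A second gene on the same strand covers 42.3% of the CFB exons (ENSG00000244255) and another 29.4% of the CFI exons (ENSG00000285330). Both of these were in the table with 0 counts in every library. Reads on such shared exons can be left out as ambiguous, depending on the counting settings, which are not given in the sources used here. The counts of CFB and CFI may therefore be too low, and no difference was detectable at this depth.

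**Figure D3:**
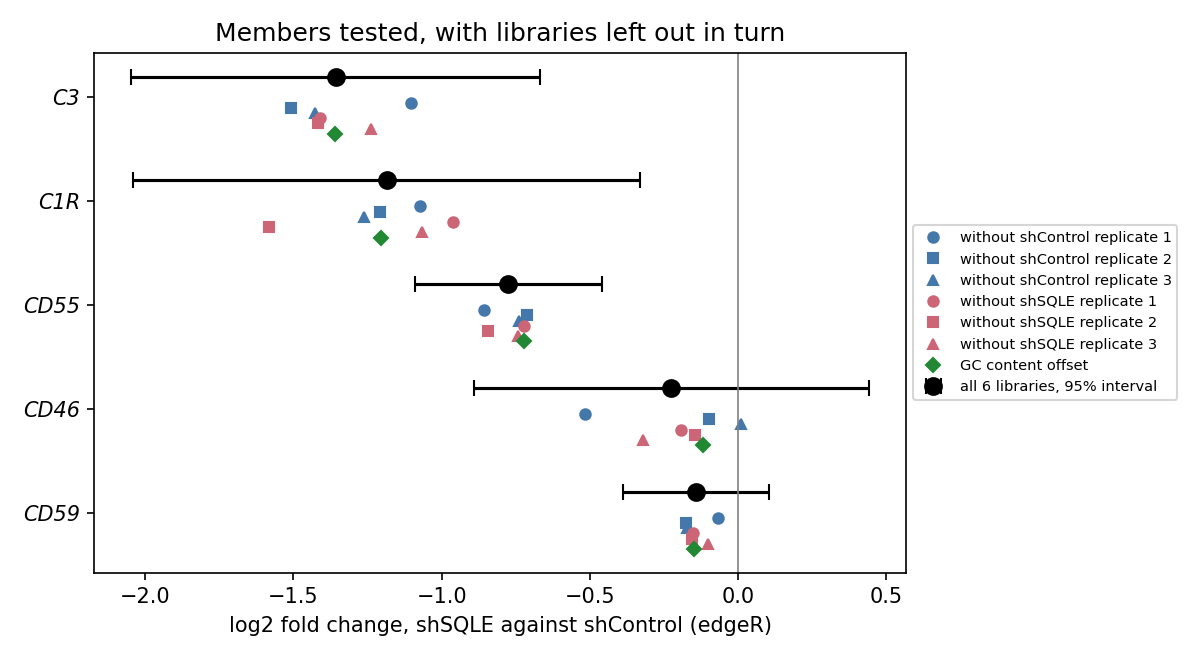
Log2 fold change of shSQLE against shControl (horizontal axis) for the 5 complement members tested, from all 6 libraries with its 95% interval (black) and from fits that left out 1 library (blue and red symbols) or fitted GC content as an offset (green). C3, C1R and CD55 stayed below 0 in every fit shown, CD59 stayed between -0.18 and -0.07, and CD46 ran from -0.52 without shControl replicate 1 to 0.0087 without shControl replicate 3.

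Of 49 other complement genes on a list of components, regulators and receptors, 31 did not exceed 3 counts in any library, and 22 of these had no count at all. Among the 22 were the C1q chains (C1QA, C1QB and C1QC), the lectin MBL2 and the pore components C6, C7, C8A, C8B and C9. Only 9 passed the filter, of which 7 were below 0 and 2 above. The median log2 fold change was -0.46, but -0.17 with DESeq2 and between -0.21 and -0.36 in the fits that left out 1 library. The gene at the median was C3AR1, with 9, 20 and 14 raw counts in the shControl replicates and 4, 18 and 9 in the shSQLE replicates. All shControl libraries but only shSQLE replicate 2 reached the filter minimum of 0.737 CPM. C3AR1 therefore adds nothing to these counts or to the median as evidence of a direction. At an adjusted p under 0.05, 1 of the 9 was lower and 0 higher, where 2.84% of all genes were lower. At an unadjusted p under 0.05, 4 were lower and 1 higher (9.89% and 4.83% of all genes). The gene called was ITGB2, the beta chain of complement receptors 3 and 4, with 56.6, 53.4 and 61.8 normalized counts in the shControl replicates and 32.3, 24.6 and 24.7 in the shSQLE replicates. The groups did not overlap, and the log2 fold change was -1.07 (standard error 0.21, adjusted p = 0.0360), a call kept in 1 of the 6 fits that left out a library, that without shControl replicate 1 (adjusted p = 0.00569). ITGAX, the alpha chain of complement receptor 4, was at -0.78 (adjusted p = 0.129). The C1R-like protease C1RL was at -0.59 (adjusted p = 0.0847) and clusterin (CLU), a fluid-phase inhibitor of the pore, at -0.61 (adjusted p = 0.275). SUSD4, a membrane protein that limits complement, was at -0.22 (adjusted p = 0.670), and C1QBP, a mainly mitochondrial protein that can bind C1q, at 0.31 (adjusted p = 0.263). Without shControl replicate 1, ITGAX (adjusted p = 0.0167), C1RL (0.00615) and C1QBP (0.00421) also passed the threshold, in a fit that called 18.3% of all genes lower and 15.6% higher. C1RL passed it too with DESeq2 (adjusted p = 0.0383) and with GC content as an offset (adjusted p = 0.0236).

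A list of possible drivers and limiters of complement transcription held 38 cytokines, receptors, kinases and factors. Of these, 34 were tested, 30 with a log2 fold change below 0 and 4 above (51.6% and 48.4% of all genes), with a median of -0.25. The list is called inducers for short, but it includes 4 feedback inhibitors, all tested and all below 0. Its counts therefore mix genes that drive transcription with genes that limit it. At an adjusted p under 0.05, 1 of the 34 was lower and 1 higher, where 2.84% and 0.369% of all genes were, and at an unadjusted p under 0.05, 11 were lower and 1 higher, against 9.89% and 4.83% of all genes. IL6, the chief inducer of acute-phase proteins in liver, fell from 144, 175 and 153 normalized counts in the shControl replicates to 11.8, 13.8 and 11.3 in the shSQLE replicates (log2 fold change -3.67, adjusted p = 0.000299). IL1A, which encodes an alarmin of the interleukin-1 family, rose from 708, 819 and 850 to 2009, 1826 and 1829 (log2 fold change 1.25, adjusted p = 0.00185), and both calls held in all 6 fits that left out 1 library. The groups were far apart for both cytokines, in opposite directions. The 3 transcription factors and feedback inhibitors described next were not called in the main edgeR fit, on condition alone with all libraries. IRF1, which acts in interferon responses, was at -0.94 (95% interval -1.45 to -0.43, adjusted p = 0.0713), and CEBPD, an acute-phase factor, at -0.84 (-1.51 to -0.17, adjusted p = 0.221). SOCS3, a feedback inhibitor induced by STAT3, was at -0.21 (-0.54 to 0.11, adjusted p = 0.583). IFNG and OSM had no count in any library, and TNF and IFNB1 at most 5 and 6. Without shControl replicate 1, IRF1 passed the threshold (-0.69, adjusted p = 0.00281), and with GC content as an offset IRF1 (adjusted p = 0.00916) and CEBPD (adjusted p = 0.0178) did. IRF1 also passed it with DESeq2 (adjusted p = 0.00552) and with a replicate block in edgeR (adjusted p = 0.0474), where CEBPD did not (0.13 and 0.0635). The number of genes of this list called lower varied between fits. It was 12 without shControl replicate 1 and 11 with GC content as an offset, when 18.3% and 6.72% of all genes, respectively, were called lower. With DESeq2 it was 4, and with library size only or a replicate block it was 2. In these fits 555, 368 and 362 of all genes, respectively, were called lower.

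**Figure D4:**
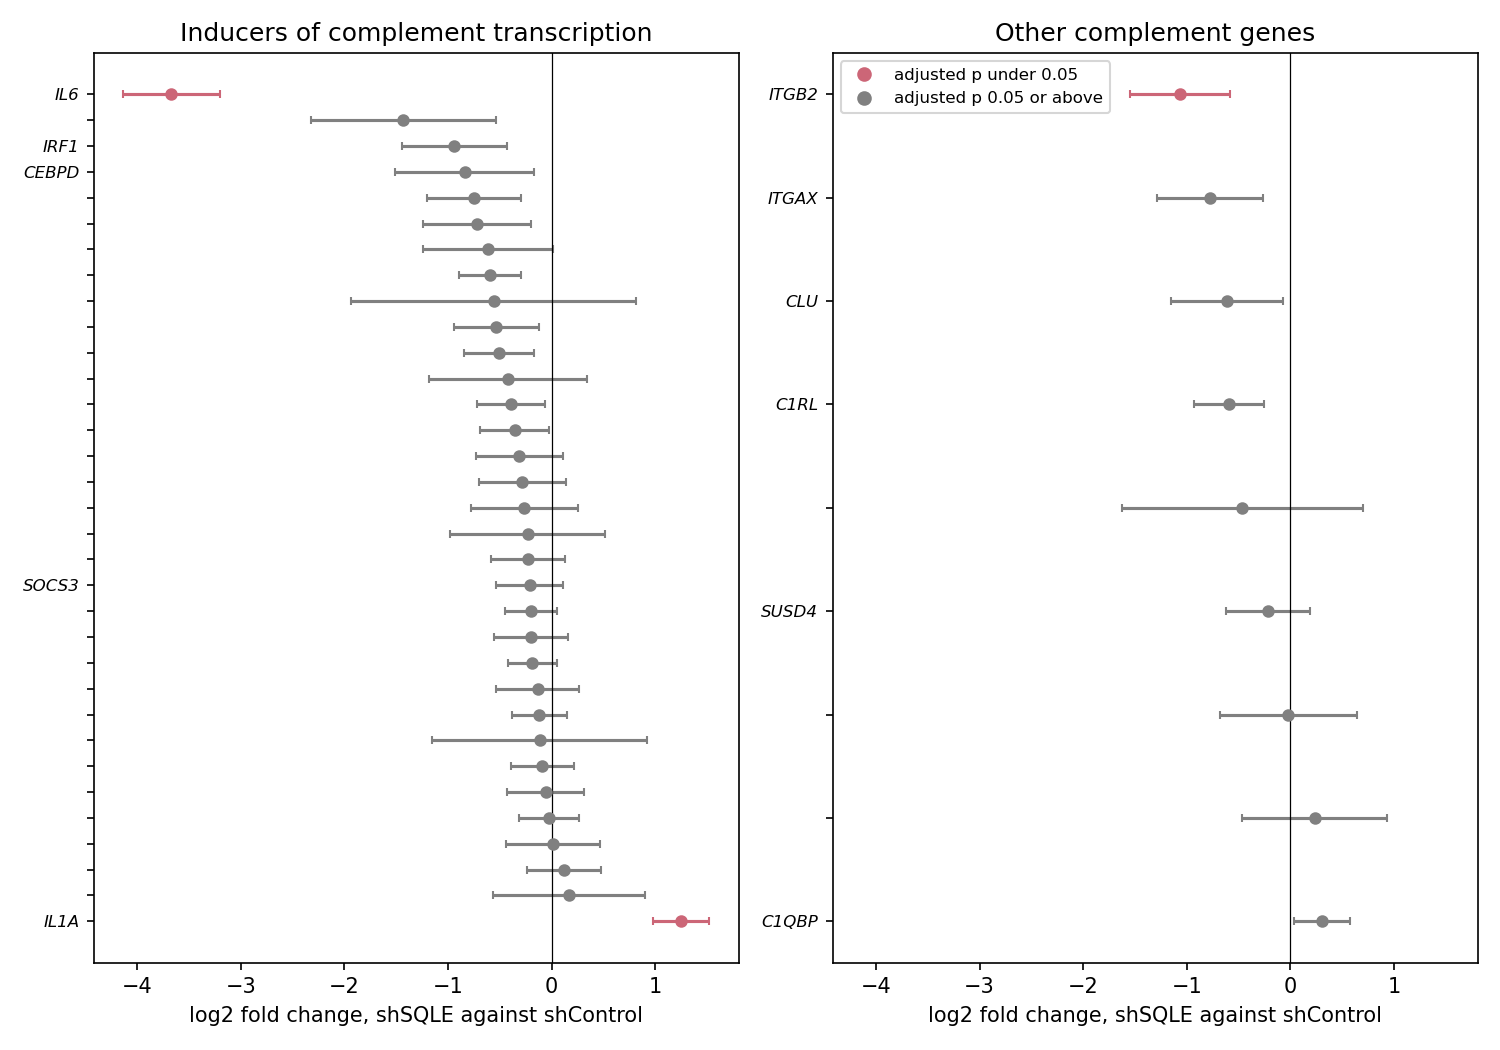
Log2 fold change of shSQLE against shControl with 95% intervals (horizontal axes) for 33 of the 34 genes of the inducer list, which includes 4 feedback inhibitors (left), and the 9 other complement genes (right) that were tested. Genes that the text names are labelled, except C3AR1, and genes at an adjusted p under 0.05 are in red. IL6 at -3.67, IL1A at 1.25 and ITGB2 at -1.07 were the genes called, and most other intervals lay around or just below 0.

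The members did not share a single profile over the 6 libraries. As a description, the Pearson correlation of log2 CPM with C3 was 0.82 for CD55 and 0.89 for CD59, but -0.18 for CD46, and that of CD46 with CD59 was -0.61, values that the group difference and shControl replicate 1 both feed into. Among 9876 other genes with a mean of at least 100 normalized counts, those whose profile was most like that of CD55 were P3H2 (r = 0.997), TMEM248 (r = 0.996) and SERPINB1 (r = 0.996). Their log2 fold changes were -0.41, -0.19 and -0.89, and of these SERPINB1 alone was called (adjusted p = 0.0165).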

How the data were processed

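Poly(A) RNA of 6 U2OS samples was sequenced as pairs of 151 bp. The submitters' processing notes name the tools fastp (version 0.20.0), STAR (2.7.9a) and featureCounts (2.0) and the build hg38. The values deposited by the authors are whole-number counts per gene without normalization. The annotation release, strand setting and treatment of ambiguous reads are not given in the sources used here.

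Symbols were found for 19905 of 19937 Ensembl identifiers. Counts were analysed with R 4.3.3 and edgeR 4.0.16: filterByExpr, TMM normalization, a quasi-likelihood test on condition alone, and Benjamini-Hochberg adjustment over all 12450 genes tested. The standard error is the log2 fold change divided by the square root of F. The filter asks for 0.737 CPM, or 10 counts at the median library size, in 3 libraries. Alternatives were DESeq2 1.42.0 (the tool the study names), limma 3.58.1 (voom), other size factors and filters, a replicate block, leaving out each library, and a fold threshold by the study's rule. A lowess offset (span 0.3) on GC content of GENCODE v44 transcripts, known for 99.98% of genes tested, and the ratios of CD55 to CD59 and CD46 were added after seeing the data. Ratios of SERPING1, CFB and CFI were not computed, because these genes did not exceed 3 counts. Lengths, positions and overlaps came from GENCODE v44 and promoters from RefSeq.

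The members and gene lists were chosen with earlier results of these data known. Besides SQLE and the 9 members, the text names other complement genes past an adjusted p of 0.05 and the 5 most abundant others, inducers past it and a few whatever their result (IL6, IL1A, IRF1, CEBPD and SOCS3, with 1 more not reported here), and the 3 genes most like the member called. Markers, genes named for having few or no counts, C3AR1 and ITGAM fall outside this rule and were named after their values were seen. Identical libraries were looked for: for the closest pair, replicates 2 and 3 of shControl, chi-square per degree of freedom was 2.76, above sampling noise. With 12212378 to 14393292 counts per library, 3 counts were taken as the floor. On simulated counts with 200 changed genes, 85.9% of changes of 1 and 100% of changes of 2 on the log2 scale were called, with 4.15% of calls on unchanged genes. The simulation gave every gene the same dispersion (0.0267) and gave no library the GC-linked shift of shControl replicate 1. These rates therefore check the code and do not give the power of the real libraries.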

Additional observations from a re-analysis of the deposited data

How the results depend on the processing

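The direction of the C3, CD55 and CD59 differences held in all 14 alternatives, and that of SQLE with its call in all 14. CD46 turned, to 0.0087 without shControl replicate 3. In the fits that left out 1 library, log2 fold changes ran from -1.51 to -1.10 for C3, from -0.52 to 0.0087 for CD46 and from -0.86 to -0.71 for CD55. Members called lower ranged from 0 to 3 (1 with all libraries), other complement genes called lower from 0 to 3 and higher from 0 to 1, inducers called lower from 1 to 12 and higher from 1 to 2, and all genes called lower from 101 to 2300 and higher from 4 to 1964, with the upper ends all reached without shControl replicate 1. With 1 library fewer, a group has only 2, and the cause of each change was not tested.

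DESeq2 tested more genes: 8 members, 27 other complement genes, 36 inducers and 15995 genes in all. It called 2 members, 2 other complement genes, 4 inducers and 555 of all genes lower and 153 higher, with C3 at -1.36. With library size only, 2 members, 1 other complement gene, 2 inducers and 368 of all genes were called lower and 33 higher, with C3 at -1.39. The median of all genes moved from -0.01 to -0.05. With GC content as an offset, 2 members, 2 other complement genes, 11 inducers and 837 of all genes were called lower and 343 higher, with C3 at -1.36. The study sets a fold threshold by a rule on the mean and SD of absolute log2 fold changes. That rule, applied here to the edgeR fit, gave a threshold of 0.97. It left 0 members, 1 other complement gene and 261 of all genes lower and 10 higher, with 1 inducer in each direction. The filter of 10 counts in every library removed C1R.

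The replicate numbers were not taken to pair the libraries: deviations from the group means of same-numbered libraries correlated at 0.14, -0.43 and 0.54. With the replicate block, 1 member was called lower (CD55, -0.77), 0 other complement genes (ITGB2 had an adjusted p of 0.0562), 2 inducers and 362 of all genes, with 34 higher. C3, C1R, C1S, CFB, CFI and SERPING1 had at most 44 counts in a library, so counting error limits them most.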

Other observations

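ITGAM, the alpha chain of complement receptor 3 and the partner of the ITGB2 product, was too low to be tested and was noticed only after its values were seen. It had 7, 9 and 11 counts in the shControl replicates and 1, 0 and 2 in the shSQLE replicates, so every shSQLE library was at or under the floor of 3 counts and every shControl library above it.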
